A study of Mus musculus with 18 samples.

Results

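Lysosomal cathepsins and cystatin C, the secreted inhibitor of the cysteine cathepsins, were measured in immune cells of atherosclerotic arteries. The members are the rows of the deposited table with the symbols Ctsl, Ctss, Ctsk, Ctsb, Ctsc, Ctsh, Ctsz, Ctsd, Ctsa and Cst3, which are 10 of 23337 genes. RNA was sequenced from live CD45+ cells of digested aortas and carotid arteries. All mice, male and female, were C57BL/6 with the genotype Apoe-/- Cx3cr1GFP Cd11cYFP and were aged 7 months, of which 5 on Western diet, so no group is free of atherosclerosis. Cells positive for GFP alone form the subset GFP (n = 6), those with both reporters DP (n = 4), those positive for YFP alone YFP (n = 5) and those with neither DN (n = 3). The labels give neither the number of copies of each reporter nor whether replicates came from separate mice, so p-values measure the spread between these libraries, which may be technical.

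Cathepsins are proteases that digest proteins in the lysosome after being made as inactive precursors, and macrophages are rich in them. The cysteine cathepsins L, S and K cut within protein chains and can degrade elastin or collagen when released, which is why they are studied in plaques. Cathepsins B, C, H and Z act mainly on chain ends, B also within chains, while cathepsin D is an aspartic protease and cathepsin A a serine carboxypeptidase. Cystatin C blocks cysteine cathepsins outside the cell.

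Some libraries went against their labels or stood apart. Cx3cr1, the gene of the GFP reporter, was at 80.9 to 165 CPM in the GFP libraries, but also at 142 and 134 CPM in DN 3 and DN 6 and at 104 CPM in YFP 6, and at only 9.43 and 0.427 CPM in DP 4 and DP 5. Itgax, the gene of CD11c, was at 38.6 and 47.8 CPM in DP 4 and DP 5 against 456 and 311 CPM in DP 1 and DP 2. It did not separate GFP (107 to 191 CPM) from YFP 1 (175 CPM) and YFP 6 (89.6 CPM), while YFP 3, 4 and 5 held 380, 499 and 1120 CPM. DN 3 and DN 6 held 332 and 297 CPM of Itgax, and YFP 3 and YFP 4 held 60.7 and 60.0 CPM of Cx3cr1. DP 4, DP 5, DN 3, DN 6 and YFP 6 are called the libraries against their labels. The results for Ctsk and Ctsl and the medians over the members are also given without these 5 libraries. YFP 6 held 289166 counts, while the other 17 held between 9790946 and 27742113. Libraries numbered 1 or 2 (n = 6) detected 19245 to 21972 genes and those numbered 3 to 6 (n = 12) detected 13150 to 18961. TMM, the scaling behind the CPM values, gave YFP 5 a factor of 0.445 and DP 5 one of 0.533, against 0.862 to 1.75 for the others, so their CPM values are raised by it. CPM of the total count, without that factor, are therefore also given for Ctsk, Ctsl, Ctss, Ctsd and Cst3 and, in some libraries, for Ctsc. Leaving out a library can also change the reference library of TMM and the set of tested genes. Without YFP 5, the median log2 difference of the members between DP and GFP went from -0.41 to 0.11, although no DP or GFP library was removed. Between YFP and GFP this median went from 0.74 to 1.06 without DP 5, a library of neither subset. Values without YFP 5 against DP therefore hold such a shift as well as the removal of YFP 5, and those against GFP may do so. The leukocyte gene Ptprc was detected in every library (439 to 1248 CPM).

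The promoters of 3 of the 8 members with a RefSeq promoter held CACGTG, the core of the element bound by TFEB and its relatives, which switch on many lysosomal genes. The window ran from 250 bases before to 50 after the start site. The motif reads the same on both strands and occurred in 7.15% of 32851 mouse promoters of the same length. The sites of Ctsd, Ctsl and Ctsa are shown because these are the members whose promoter held the motif, with the motif in capitals, 5′ to 3′ on the strand of the gene (GRCm38.p6). The Ctsd sites began 98 and 245 bases before the start site, the Ctsl site 236 and the Ctsa site 12 bases before the second of its RefSeq start sites. The same Ctsa window held the motif once more, from base 6 after that start site, which is not shown.
Ctsd, chr7:142387908-142387937, minus strand: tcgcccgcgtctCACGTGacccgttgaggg
Ctsd, chr7:142388055-142388077, minus strand: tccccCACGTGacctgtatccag
Ctsl, chr13:64370739-64370768, minus strand: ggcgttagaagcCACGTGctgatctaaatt
Ctsa, chr2:164833749-164833772, plus strand: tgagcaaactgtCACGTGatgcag
TGANTCA, an AP-1 type motif that also reads the same on both strands and shares no stretch with CACGTG, was in 0 of the 8 and in 7.81% of all. A longer form of the element, with CACGTG at its centre and fixed bases on both sides, was in 0 of the 8 and in 0.326% of all. No site shown therefore matches the longer form in full, though bases next to the core of the Ctsd and Ctsa sites match it in part. Such matches describe letters only.

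All 10 members were among the most abundant transcripts of every subset. Per kilobase of exon, the mean level of a member in a subset lay between percentile 94.3 of tested genes, for Ctsk in GFP, and percentile 99.97, for Ctss in YFP. Together the members made up 1.78% to 5.55% of all counts in 17 libraries and 0.510% in DN 1. Averaged over the 18 libraries, Ctss stood at 3320 CPM per kb, Ctsd at 2720, Ctsb at 2266, Cst3 at 2111 and Ctsz at 1653. Ctsa followed at 383 CPM per kb, Ctsc at 276, Ctsh at 224, Ctsk at 208 and Ctsl at 198. The first 5 filled the ranks 1 to 5 in all 18 libraries, but within them the order changed: Ctss was first in 9 libraries, Ctsd in 6, Cst3 in 2 and Ctsb in 1. Within the lower 5, Ctsk was last in 10 libraries and Ctsl in 4. Measured per kilobase of the principal transcript, Ctsc and Ctsh rose to 643 and 623 CPM per kb, since much of their annotated exon length lies outside that transcript. Both were then above Ctsa (495 CPM per kb). On that scale the division into 5 and 5 did not hold in every library: Ctsz fell as low as rank 7 and Ctsh stood as high as rank 5, and Ctsb, Ctsd and Cst3 were first in 5 libraries each and Ctss in 3.

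**Figure D1:**
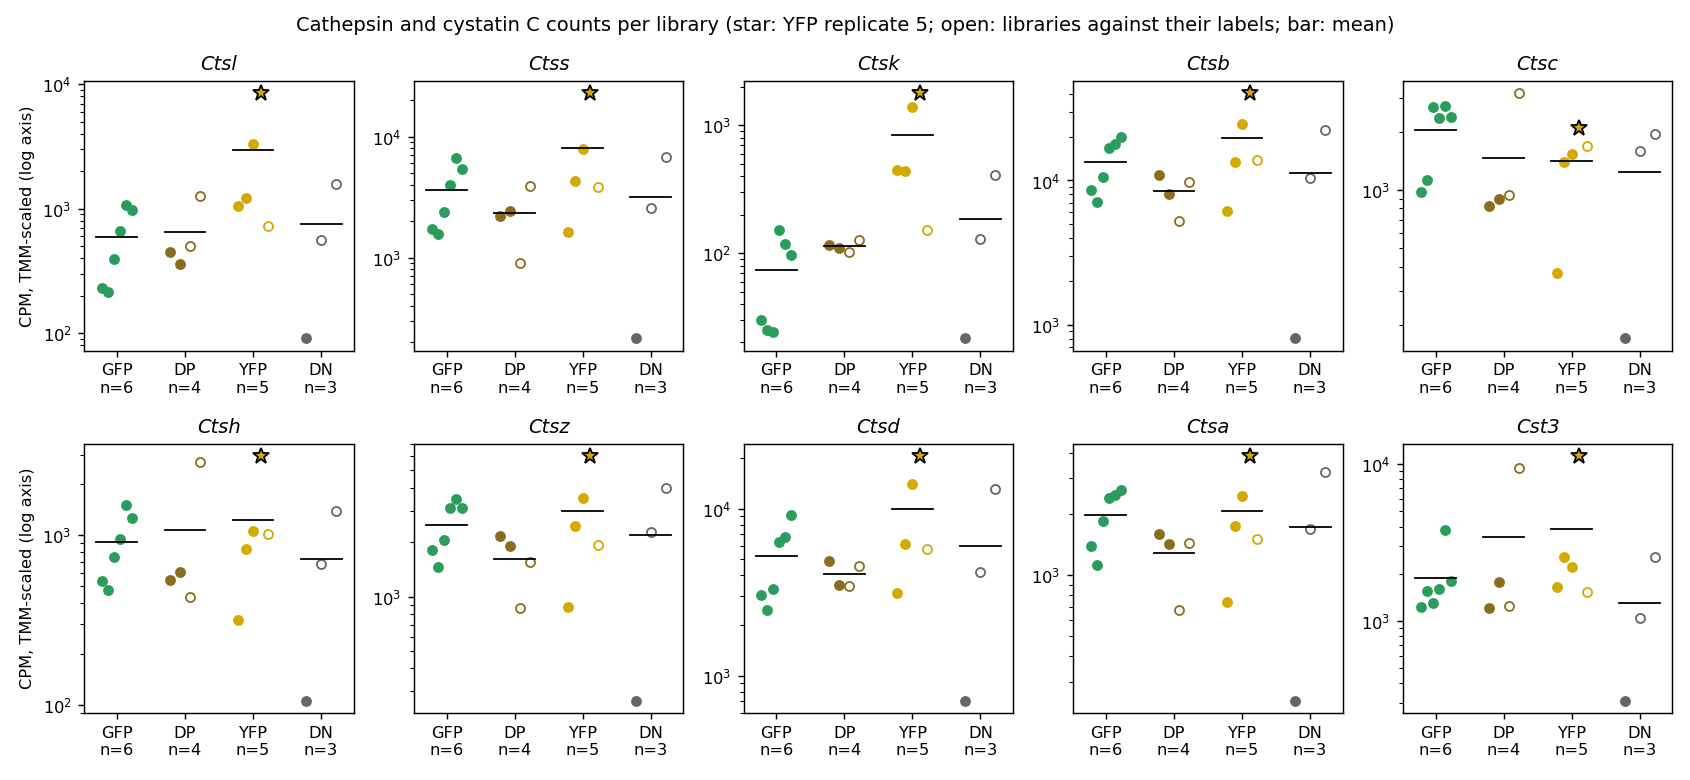
CPM (TMM-scaled, log axis) of each member in each library, by subset; bars are means, the star is YFP 5 and open circles are the 5 libraries against their labels. For 9 of the 10 members YFP 5 is the highest of the 18 points, DN 1 is the lowest for all 10, and Ctsk is the only panel in which all 5 YFP points lie above all 6 GFP points.

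Ctsk encodes cathepsin K, the collagenase of osteoclasts, which some macrophages and fibroblasts also make. It lies on chromosome 3 at 95499256 to 95509362 (plus strand, mm10), next to Ctss. The YFP libraries 1, 3, 4, 5 and 6 held 448, 438, 1385, 1782 and 152 CPM. The GFP libraries 1 to 6 held 30.1, 25.2, 24.1, 151, 117 and 96.5 CPM, and DP 1, 2, 4 and 5 held 116, 110, 101 and 128 CPM. DN 1, 3 and 6 held 21.5, 128 and 407 CPM. Every YFP library was thus above every GFP and every DP library, although YFP 6 (152 CPM) exceeded GFP 4 (151 CPM) by little. Such a separation of all libraries was shown by 0.251% of tested genes for YFP over GFP and by 0.367% for YFP over DP, and Ctsk was the only member with either. The mean was 841 ± 702 CPM in YFP (SD, n = 5), or 606 ± 537 without YFP 5 (n = 4), against 74.1 ± 55.0 in GFP (n = 6), 114 ± 11.1 in DP (n = 4) and 186 ± 199 in DN (n = 3). DP values lay within the GFP range. In bulk samples, more cells of a type and more RNA per cell cannot be told apart, here and in the values that follow.

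The fitted Ctsk level was 11.4-fold higher in YFP than in GFP (log2 3.51, SE 0.69), with an adjusted p of 0.0752 by edgeR's quasi-likelihood test and the seventh smallest p of all tested genes, so it did not pass. In that comparison edgeR called 0 of 17143 genes (percent called 0), with 1203 genes, or 7.02%, at an unadjusted p under 0.05. Over 28 alternatives the Ctsk log2 fold change stayed between 3.13 and 4.20, and the adjusted p reached up to 0.395. Ctsk was called by 7 of them, which include the fit to numbers 1 and 2, where YFP 1 stands alone. DESeq2 was among those (adjusted p = 5.67e-05), as was the fit without the libraries against their labels (log2 3.77, SE 0.59, adjusted p = 0.0157). Leaving out YFP 1, YFP 3 or YFP 6 also ended with Ctsk called (adjusted p = 0.0459, 0.0347 and 0.0394). Those fits called 5, 8 and 11 genes in all (0.0298%, 0.0469% and 0.0647%). DESeq2 called 1.38% of its genes, and the fit without the libraries against their labels called 0.283%. Without YFP 5, however, the log2 fold change of Ctsk was 3.13 (SE 0.65, adjusted p = 0.230). Against DP, Ctsk was 7.40-fold higher in YFP (log2 2.89, SE 0.79, adjusted p = 0.392), and 2.04 on the log2 scale without YFP 5 (SE 0.73, adjusted p = 0.302). DESeq2 called this difference too (adjusted p = 0.0283), as it did for 0.898% of its genes. Without the libraries against their labels it was 3.17 (SE 0.90, adjusted p = 0.874). Both comparisons use the same YFP libraries. Within numbers 1 and 2, where YFP 1 alone stands for YFP, Ctsk was 4.185 higher than in GFP on the log2 scale. Within numbers 3 to 6 it was 3.25 higher (adjusted p = 0.395).

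Ctsl encodes cathepsin L, a broad endopeptidase of the lysosome (chromosome 13, 64359337 to 64370890, minus strand). Its exons overlap an antisense gene and a processed pseudogene, so its counts are uncertain to that extent. The YFP libraries 1, 3, 4, 5 and 6 held 1042, 1216, 3307, 8476 and 719 CPM. The GFP libraries 1 to 6 held 228, 215, 392, 663, 1076 and 972 CPM, and the DP libraries 452, 362, 498 and 1266 CPM. YFP 1 and YFP 6 thus overlapped the highest GFP libraries, while YFP 3, 4 and 5 were above all of them. YFP averaged 2952 ± 3251 CPM, or 1571 ± 1175 without YFP 5, against 591 ± 374 in GFP, 644 ± 418 in DP and 750 ± 769 in DN. The log2 fold change was 2.32 (SE 0.68, edgeR adjusted p = 0.308) against GFP and 2.20 (SE 0.79, adjusted p = 0.527) against DP. Without YFP 5 it was 1.51 (SE 0.62, adjusted p = 0.928) and 0.79 (SE 0.69, adjusted p = 0.837). Within numbers 1 and 2 the log2 fold change over GFP was 2.40, and within numbers 3 to 6 it was 2.11 (adjusted p = 0.417). DESeq2 called Ctsl for YFP over GFP (log2 2.68, adjusted p = 0.0227), as it did 1.38% of its genes. Without the libraries against their labels edgeR gave 2.57 against GFP (SE 0.58, adjusted p = 0.0725) and 3.11 against DP (SE 0.91, adjusted p = 0.874).

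CPM of the total count also put the mean of YFP highest for these 2 genes. Ctsk was then at 658 ± 400 in YFP (SD, n = 5), 69.5 ± 44.7 in GFP (n = 6) and 116 ± 32.2 in DP (n = 4), and YFP 4 (1237), not YFP 5 (792), held the most. Ctsl was at 2053 ± 1254 in YFP, 559 ± 295 in GFP and 564 ± 99.4 in DP. On this scale every YFP library was above every DP library for both genes, as for 0.245% of tested genes. For Ctsk alone, every YFP library was also above every GFP library, as for 0.262% of tested genes.

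Ctss encodes cathepsin S, an elastin-degrading protease that also trims the invariant chain of MHC class II in antigen-presenting cells (chromosome 3, 95526786 to 95556403, plus strand). It was at 1621, 4270, 7945, 22834 and 3851 CPM in YFP 1, 3, 4, 5 and 6. GFP ranged from 1558 to 6610 CPM and DP from 901 to 3893 CPM, so the subsets overlapped. The log2 fold change of YFP over GFP was 1.17 (SE 0.67, adjusted p = 0.805) and became 0.35 (SE 0.63) without YFP 5. Over DP it was 1.78 (SE 0.78, adjusted p = 0.646) and became 0.42 (SE 0.69). The mean of Ctss was 8104 CPM in YFP, 4422 without YFP 5, 3604 in GFP and 2353 in DP. As CPM of the total count it was 5644 ± 3033 in YFP (SD, n = 5), 3440 ± 1564 in GFP (n = 6) and 2178 ± 813 in DP (n = 4).

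**Figure D2:**
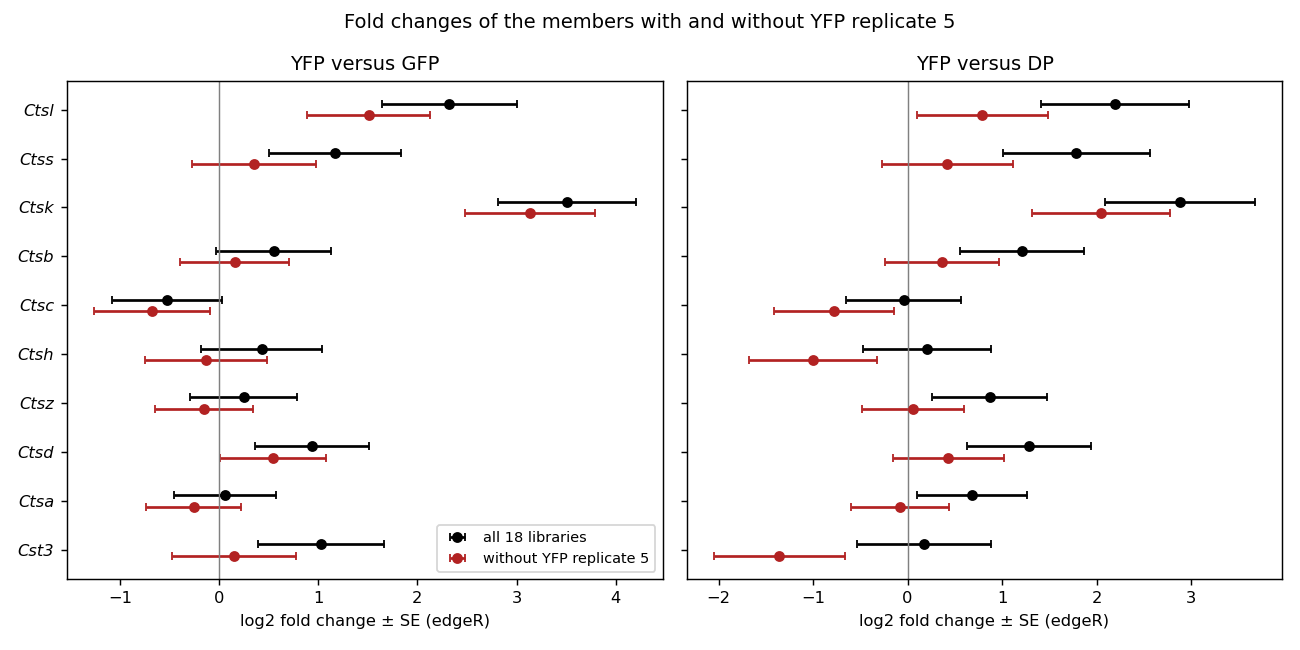
Log2 fold changes of the members with SE (edgeR), for YFP versus GFP and YFP versus DP, in all 18 libraries (black) and without YFP 5 (red). Ctsk and Ctsl have the largest values in both panels, and without YFP 5 every member moves to the left, Cst3 against DP from 0.17 to -1.36. In the same fit Cst3 in DP versus GFP, not drawn, went from 0.86 to 1.51, although no DP or GFP library was removed.

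Among the cathepsins that trim chain ends, Ctsb was the most abundant transcript by count, and it encodes cathepsin B, which acts both as an endopeptidase and as a dipeptide-releasing carboxypeptidase. It was at 6182, 13474, 24596, 40263 and 13885 CPM in YFP 1, 3, 4, 5 and 6 and at 7043 to 19967 CPM in GFP. DP held 5259 to 10843 CPM, and the ranges of all subsets overlapped. The log2 fold change of YFP over GFP was 0.55 (SE 0.58, adjusted p = 0.977) and 0.16 without YFP 5. Ctsz, whose product cathepsin Z removes single residues from the carboxyl end, was at 874 to 6016 CPM in YFP and 1466 to 3454 CPM in GFP. Its log2 fold change was 0.25 (SE 0.54) and turned to -0.15 without YFP 5. Ctsh, the aminopeptidase cathepsin H, was at 318 to 2942 CPM in YFP, 475 to 1521 CPM in GFP and 431 to 2708 CPM in DP. Its log2 fold change over GFP was 0.43 (SE 0.61) and turned to -0.13 without YFP 5. Exons of Ctsb and Ctsz overlap those of a gene on the opposite strand (Fdft1 and Nelfcd).

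Ctsc encodes cathepsin C, or dipeptidyl peptidase 1, which activates the serine proteases of neutrophil, mast cell and lymphocyte granules. It was the only member with a negative fold change for YFP over GFP (log2 -0.53, SE 0.55, adjusted p = 0.977), and stayed negative in each of the 18 fits that left out 1 library. YFP 1, 3, 4, 5 and 6 held 371, 1388, 1539, 2099 and 1687 CPM, and GFP 1 to 6 held 971, 1130, 2672, 2366, 2701 and 2393 CPM. DP 1, 2 and 4 held 826, 899 and 938 CPM, while DP 5 held 3159 CPM, the highest value of all 18 libraries on the TMM scale. As CPM of the total count DP 5 held 1682, above the other DP libraries (933 to 1162) but below GFP 3 (2628), the highest. The summed level of 8 granule proteases that cathepsin C can activate was 7510 CPM in DP 5 and 1.10 to 298 CPM in the other 17. DP 5 had the highest sums of 4 mast cell markers (9918 CPM, against 0.953 to 316 CPM) and of 6 neutrophil markers (17063 CPM, against 8.03 to 1283 CPM). These sums are not separate from that of the granule proteases. Cma1, Mcpt4 and Tpsb2, at 3536, 1315 and 2634 CPM in DP 5, are in both the granule protease and the mast cell list. The granule protease list also shares a gene with the neutrophil list. The part of mast cells and neutrophils in the Ctsc level was not tested.

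Ctsd encodes cathepsin D, the main aspartic protease of the lysosome (chromosome 7, 142375911 to 142388038, minus strand). It was at 3113, 6107, 14085, 20651 and 5762 CPM in YFP 1, 3, 4, 5 and 6, at 2486 to 9105 CPM in GFP and at 3458 to 4871 CPM in DP. YFP 4 and YFP 5 were above every GFP and DP library, and the other YFP libraries overlapped with GFP. The log2 fold change over GFP was 0.94 (SE 0.57, adjusted p = 0.847), and 0.54 without YFP 5. Over DP it was 1.28 (SE 0.66, adjusted p = 0.778), and 0.43 without YFP 5. As CPM of the total count Ctsd was at 7783 ± 3164 in YFP (SD, n = 5), 5009 ± 2010 in GFP (n = 6) and 4144 ± 1287 in DP (n = 4). Exons of Ctsd overlap those of Gm49369 on the same strand, and exons of Ctsa those of Neurl2 and Pltp on the opposite strand, so reads there could be split. Ctsa, whose product is a carboxypeptidase that also shields beta-galactosidase and neuraminidase from degradation, was at 735 to 3861 CPM in YFP and 1120 to 2617 CPM in GFP. Its log2 fold change was 0.06 (SE 0.52) and turned to -0.26 without YFP 5.

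Cst3, the gene of cystatin C, lies on chromosome 2 at 148871722 to 148875692 (minus strand) and has the shortest exon length of the members. It was at 1647, 2570, 2201, 11277 and 1534 CPM in YFP 1, 3, 4, 5 and 6, and at 1201, 1765, 1250 and 9433 CPM in DP 1, 2, 4 and 5. GFP 1 to 6 held 1233, 1559, 1293, 1599, 3812 and 1797 CPM. In each of these 3 subsets the library numbered 5 was the highest, and the others lay close together. The same 3 libraries drew 4.43% (YFP 5), 8.54% (DP 5) and 2.85% (GFP 5) of their counts from genes with under 1 kb of exon, against 1.14% to 2.38% in the other 15. The part of that difference in the Cst3 level was not tested. The log2 fold change over GFP was 1.03 (SE 0.63, adjusted p = 0.852), and 0.15 without YFP 5. Over DP it was 0.17 (SE 0.71), and -1.36 without YFP 5. Cst3 over DP was 1.59 (SE 0.72, adjusted p = 0.874) without the libraries against their labels, DP 5 among them. As CPM of the total count Cst3 was at 2733 ± 1310 in YFP (SD, n = 5), 1862 ± 748 in GFP (n = 6) and 2536 ± 1699 in DP (n = 4).

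YFP 5 was the highest of all 18 libraries for 9 members by CPM. Its ratio to the median of the other YFP libraries ran from 1.43 for Ctsc to 7.51 for Ctsl, while the median ratio over all tested genes was 0.264. As CPM of the total count the ratio ran from 0.688 for Ctsc to 2.79 for Ctsl, and YFP 5 was then the highest of 18 only for Ctsl and Ctss. The 10 members had a median log2 fold change of 0.74 for YFP over GFP, with 9 higher and 1 lower, beside a median of 0.04 over all tested genes. Without YFP 5 the median was 0.15, with 6 higher and 4 lower. For YFP over DP it was 1.04, with 9 higher, beside -0.09 over all genes, and 0.21 without YFP 5, beside -0.31 over all genes. Without the libraries against their labels the medians were 0.87 over GFP (9 higher, 1 lower) and 1.29 over DP (10 higher), beside -0.10 and -0.24 over all genes. With all libraries, for YFP over DP, edgeR called 0 of 10 members and a percent of 0 of all genes, with 1154 genes at an unadjusted p under 0.05, 3 members among them (Ctsk, Ctsl and Ctss).

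Between DP and GFP no member moved past the test. EdgeR called 0 of 10 members, beside 0.198% of tested genes, and no member reached an unadjusted p under 0.05. The median log2 fold change of the members was -0.41, with 4 higher and 6 lower, beside 0.20 over all tested genes. The values ran from -0.66 for Ctsb (SE 0.63) to 0.86 for Cst3 (SE 0.67). The sign of this median changed with the settings. It was 0.11 without YFP 5 (6 higher, 4 lower), 0.11 without GFP 3 and 0.21 without GFP 6, and ran from -0.54 to 0.21 over the 18 fits that left out 1 library. With the replicate block it was -0.030, with 5 higher and 5 lower, and without the libraries against their labels -0.46, with 1 higher and 9 lower.

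Ratios of counts within a library, which no scaling touches, separated the cathepsins from each other. For every 100 Ctsb counts, the GFP libraries held 0.227 to 0.903 Ctsk counts, DP held 1.07 to 1.93, YFP held 1.10 to 7.25 and DN held 1.22 to 2.69. All 6 GFP libraries were below all 12 others in this ratio, a split chosen after the values were seen, which 3 of the 17142 tested genes other than Ctsb, or 0.0175%, showed in their ratio to Ctsb, Ctsk among them. The highest value was that of YFP 1 (7.25), followed by YFP 4 (5.63), YFP 5 (4.43) and YFP 3 (3.25), and YFP 6 (1.10) lay within DP. For every 100 Ctsb counts there were 2.67 to 6.06 Ctsl counts in GFP and 5.18 to 21.1 in YFP, where YFP 6 was again the lowest. The ratio of Ctss to Ctsb differed less, with 20.1 to 37.2 in GFP, 17.1 to 39.9 in DP and 26.2 to 56.7 in YFP, and YFP 5 as the highest. Ctsb counts per Cst3 count ran from 4.52 to 11.1 in GFP and from 3.57 to 11.2 in YFP, so the ranges of protease to inhibitor overlapped, and DP 5 had the lowest value of all (1.03).

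**Figure D3:**
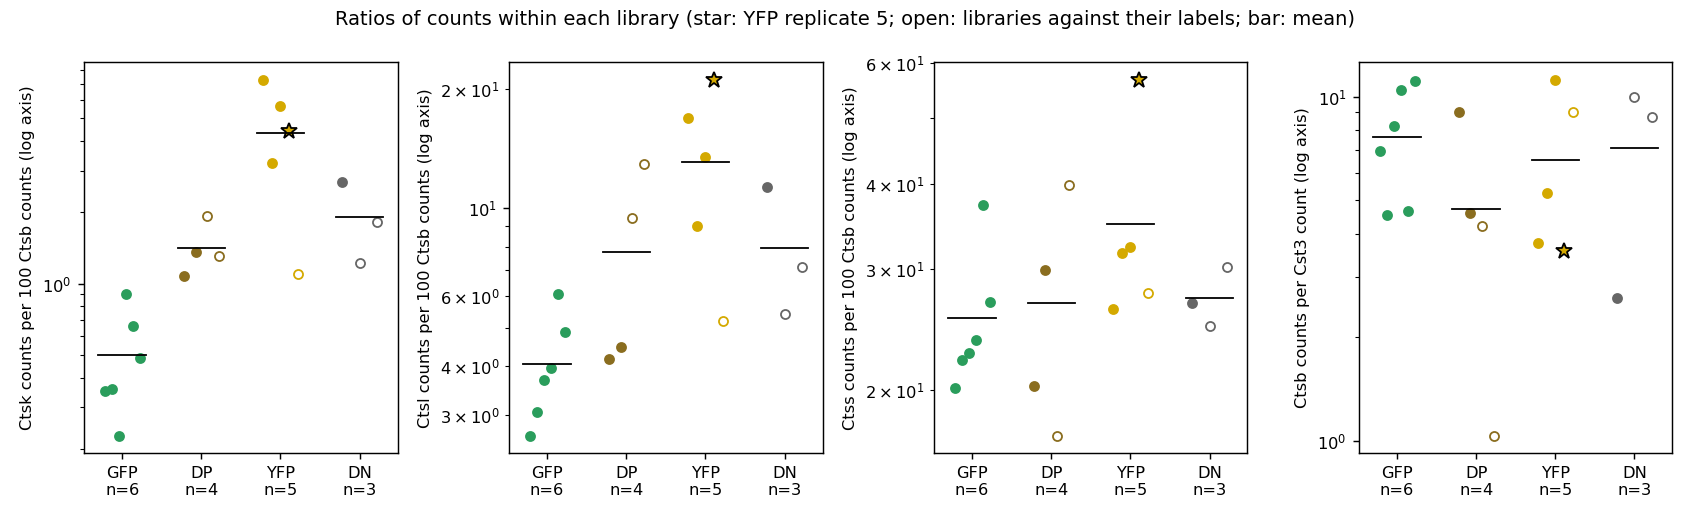
Counts of Ctsk, Ctsl and Ctss per 100 Ctsb counts, and Ctsb counts per Cst3 count, in each library (log axes); bars are means, the star is YFP 5 and open circles are the libraries against their labels. The 6 GFP points lie below all others for Ctsk (at most 0.903), and DP 5 lies apart at 1.03 in the last panel.

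The DN libraries differed widely among themselves. DN 1 was the lowest of all 18 libraries for all 10 members, with 801 CPM of Ctsb, 215 of Ctss and 703 of Ctsd. DN 3 held 10471, 2593 and 4160 CPM of these genes and DN 6 held 22452, 6794 and 13106 CPM, within or above the GFP range. DN 1 was also the only DN library with low Cx3cr1 and Itgax (4.09 and 11.4 CPM). Its 7 macrophage markers summed to 1141 CPM, against 6244 to 87342 CPM elsewhere, and its 4 B cell and 4 T cell markers to 1159 and 834 CPM, the highest of all. Over all 3 DN libraries edgeR called 0 of 10 members and a percent of 0 of all genes against GFP, YFP and DP, with 231, 461 and 464 genes at an unadjusted p under 0.05. The median log2 fold change of the members was 0.20 for GFP, 0.79 for YFP and -0.41 for DP over DN. Without the libraries against their labels, which leaves DN 1 alone in its subset, these medians were 3.10, 3.92 and 2.52, again with 0 members called. Within numbers 1 and 2, where DN 1 and YFP 1 each stand alone, edgeR called 8 members higher in GFP, 9 in YFP and 10 in DP than in DN. That fit called 2296, 1807 and 2584 of 18359 genes in the same comparisons, or 12.5%, 9.84% and 14.1%. A lone library is then assumed to vary like the other subsets.

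Markers of other cells were set beside Ctsk, since fibroblasts can express it. The 6 fibroblast markers, all detected in every library, summed to 227 to 1019 CPM in GFP, 1185 to 11323 CPM in DP, 824 to 10403 CPM in YFP and 2067 to 4233 CPM in DN. Dcn, one of them, was called higher in DP than in GFP (log2 3.98, SE 0.74, adjusted p = 0.0361). For YFP over GFP, the comparison in which Ctsk was 3.51 higher on the log2 scale, all 6 fibroblast markers also had higher fitted levels, with a median log2 fold change of 2.72 and 0 called. Their part in the Ctsk difference was not tested. The library with the highest fibroblast sum, DP 4, held 101 CPM of Ctsk, and YFP 5, with a sum of 893 CPM, held 1782 CPM. YFP 1 combined a sum of 10403 CPM with 448 CPM of Ctsk. The 6 markers of foamy, lipid-laden macrophages summed to 3906 to 24779 CPM in GFP and 6709 to 19428 CPM in DP. In YFP they summed to 8757 to 77364 CPM and in DN to 431 to 35549 CPM. YFP 5 (77364 CPM) and YFP 4 (39136 CPM) had the highest foamy sums as well as the highest Ctsk. GFP 6, with a foamy sum of 24779 CPM, held 96.5 CPM of Ctsk, and DP 5, with 19428 CPM, held 128 CPM. YFP 1, with a foamy sum of 8757 CPM, held 448 CPM of Ctsk. Over the 17 libraries other than YFP 6, Spearman's rho of Ctsk was 0.78 with the foamy sum, 0.51 with the macrophage sum and 0.35 with the fibroblast sum. For Ctsl it was 0.95, 0.78 and 0.22, and for Ctsh 0.86, 0.99 and -0.25. These correlations describe libraries that share their scaling and macrophage content.

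**Figure D4:**
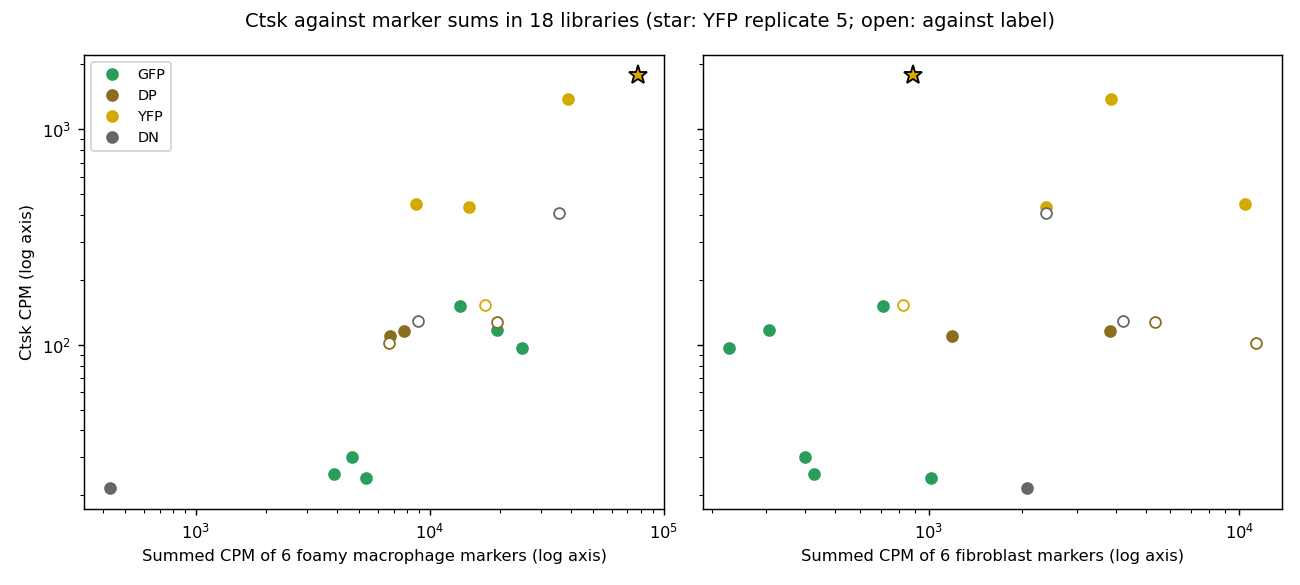
Ctsk CPM of each library against the summed CPM of 6 foamy macrophage markers (left) and 6 fibroblast markers (right), all axes log; the star is YFP 5 and open circles are the libraries against their labels. The highest Ctsk values, in YFP 5 and YFP 4, lie at the highest foamy sums (77364 and 39136 CPM). GFP 6, at a foamy sum of 24779 CPM, lies at 96.5 CPM of Ctsk, and YFP 1, at 8757 CPM, lies at 448 CPM. The highest fibroblast sum, that of DP 4, lies at 101 CPM of Ctsk.

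The members varied together to different degrees. Over the same 17 libraries, Spearman's rho was 0.97 between Ctsb and Ctsz, 0.97 between Ctsb and Ctsa and 0.94 between Ctsb and Ctss. Between Ctsl and Ctsk it was 0.86. Ctsk and Ctsc had the lowest value of all pairs (0.16, and -0.01 without DN 1). Ctsk also spread the most, with an SD of 1.83 on the log2 scale over 18 libraries, against 0.94 for Ctsa, the least.

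Of the 6689 other genes with a mean of at least 20 CPM, the 3 whose levels ranked most like Ctsk were Mamdc2 (rho 0.92), Mmp12 (0.90), the macrophage elastase, and Akr1b8 (0.86). Those most like Ctsb were Hexa (0.98), the alpha subunit of the lysosomal hexosaminidase, Lat2 (0.97) and Uap1l1 (0.97). For Ctss they were Lactb (0.98), Pld3 (0.97) and Lamp1 (0.96), a lysosomal membrane protein, and for Ctsl they were Gyg, Clptm1l and Pqlc3 (0.95 each). For Cst3 they were Rps27l (0.98), Cox7b (0.97) and Txndc17 (0.97).

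Other genes of the pathway passed the test in none of the 6 comparisons. Of 14 other cathepsin genes 6 had enough counts to be tested, and 0 were called in either direction. The most abundant were Ctso (103 ± 32.8 CPM in GFP, 138 ± 72.5 in YFP), Ctsf (61.9 ± 19.0 and 60.6 ± 49.2) and Ctsw, a cathepsin of cytotoxic lymphocytes (20.8 ± 31.4 and 1.75 ± 2.78). Ctsg, the neutrophil and mast cell protease, reached 32.5 CPM at most, in DP. Of 18 other cystatins and stefins 16 were in the table and 4 were tested, with 0 called. Cstb, the cytosolic inhibitor stefin B, was at 654 ± 825 CPM in YFP and 288 ± 149 in GFP (log2 1.18, SE 0.68, adjusted p = 0.812). Cst7, an inhibitor of cathepsin C, was at 40.8 ± 63.9 CPM in DP, 17.4 ± 20.9 in DN and at most 14.1 CPM in GFP and 5.97 CPM in YFP.

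Among 12 genes that process, sort or partner lysosomal enzymes, 0 were called, with 8 higher and 4 lower in YFP than in GFP. Cd74, the invariant chain that cathepsin S trims, was at 17828 ± 12306 CPM in YFP and 13739 ± 4364 in GFP. Psap, the precursor of the saposins, was at 3431 ± 1530 and 2750 ± 203 CPM, and Lgmn, the protease that matures several cathepsins, at 2050 ± 1234 and 1887 ± 645 CPM. These differences were smaller than the SD in YFP. The 4 lysosome transcription factor genes summed to 191 to 215 CPM in GFP and 74.8 to 173 CPM in YFP, and 3 of the 4 had lower fitted levels in YFP, with 0 called. Tfe3 was at 74.4 ± 28.3 CPM in YFP and 123 ± 11.7 in GFP, Tfeb at 30.2 ± 16.4 and 52.6 ± 11.3, and Mitf at 14.1 ± 9.58 and 17.6 ± 9.07 CPM. YFP 5, the highest library for 9 members, had the lowest sum of these factors (74.8 CPM), against 92.5 to 173 CPM in the other YFP libraries. Over all tested genes the median ratio of YFP 5 to the median of those libraries was 0.264, so a low level there was not particular to these factors.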

How the data were processed

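Libraries of 4 sorted subsets of live CD45+ cells were prepared with the kits SMART-seq v4 and Nextera XT, per the labels' protocols. TopHat 1.4.1, SAMtools, HTSeq 0.7.1 and the build mm10 are named in the submitters' processing notes; which annotation and strand setting were counted with is not given in the sources used here. The authors deposited whole-number counts for 23337 gene symbols in 18 libraries, each column named like its sample's title.

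The test was edgeR 4.0.16 under R 4.3.3 (filterByExpr by subset, TMM scaling, robust quasi-likelihood fit of all 18 libraries with 1 mean per subset). It used 17143 genes, among them all 10 members, and a common dispersion of 0.89. All 6 pairs of subsets were compared, p-values were adjusted by Benjamini-Hochberg over all tested genes, and a gene was called at an adjusted p under 0.05. The standard error of a log2 fold change was derived from its F statistic. CPM (counts divided by the TMM-scaled library size and multiplied to a common scale) are the unit of levels, and their errors are SD. Depth ranged from 289166 to 27742113 counts per library, and reads carry no molecular identifiers. The test was also run on simulated counts with 1 common dispersion for all genes. These held no library against its label, so that run does not cover such libraries.

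Members, gene lists and tests were chosen with earlier results of these data known. The text names all 10 members, up to 3 genes of the highest mean level in each other list, and the 3 genes most like each of 5 members; Ctsg, the granule protease genes together and the markers Cx3cr1, Itgax and Dcn were named in addition. Lengths and positions are from GENCODE vM21 (mm10), and promoters are from RefSeq (GRCm38.p6), which held 9 promoters of 8 members. DESeq2 1.42.0, other scalings, filters and sets of libraries were alternatives. Scaling by the total count and the length of the principal transcript were added after the data were seen.

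Deviations from subset means of same-numbered libraries were correlated as a check of pairing. All pairs were above 0.1 for GFP with DN (0.57, 0.594 and 0.673), GFP with DP (0.164 to 0.416) and YFP with DP (0.164 to 0.342), but not for YFP with GFP (-0.019 to 0.51) or YFP with DN (-0.0932 to 0.487). Numbers 1 and 2 also differed from numbers 3 to 6 in detected genes, and that difference and a pairing by number cannot be told apart. With the replicate number as a block, the median log2 fold change of the members between DP and GFP was -0.03 and that between YFP and DP 0.46, and 0 members were called in any comparison.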

Additional observations from a re-analysis of the deposited data

Results flagged for a closer look

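Of 30 sets of libraries (10 members in 3 subsets of at least 4), 5 held a library far from the others of its subset by Dixon's criterion on log2(CPM + 1); chance gives about 1 in 20. Ctsc was at 3159 CPM in DP 5, against 826 to 938 CPM in the other DP libraries, and at 371 CPM in YFP 1, against 1388 to 2099 CPM. Ctsa was at 673 CPM in DP 4, against 1431 to 1597 CPM. Cst3 was at 3812 CPM in GFP 5, against 1233 to 1797 CPM, and at 11277 CPM in YFP 5, against 1534 to 2570 CPM. DP 4 and DP 5 are among the libraries against their labels.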

How the results depend on the processing

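The higher Ctsk and Ctsl levels in YFP kept their direction under all 28 alternatives against GFP and against DP, while calls did not, and under at least 1 alternative 4 of the other 8 members reversed against GFP and all 8 against DP. With all libraries and TMM, edgeR called 0 members in each of the 6 comparisons. For YFP over GFP, DESeq2 called 2 (Ctsk and Ctsl), and 1 (Ctsk) was called with no filter on low counts and without the 5 libraries against their labels, which called 9 and 55 genes in all. For YFP over DP, DESeq2 called 1 (Ctsk). DESeq2 called 182 of 13233 genes for YFP over GFP and 115 of 12807 for YFP over DP, where edgeR called 0. Within numbers 1 and 2, where YFP and DN hold 1 library each, 2 members were called for YFP over GFP, 1 for DP over GFP, 2 for YFP over DP, and 8, 9 and 10 for GFP, YFP and DP over DN. Of 18359 genes that fit called 1438, 244, 1496, 2296, 1807 and 2584 in the same order. The medians there were -0.0097, 0.36, -0.46, 2.12, 2.24 and 2.37 in the same order. Without the 5 libraries the medians over DN were 3.10, 3.92 and 2.52. The cause of these shifts was not tested, beyond the smaller number of libraries.

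Some members reversed for YFP over GFP, none of them called in any of these fits. Scaling by total count gave -0.063 for Ctsz and -0.21 for Ctsa. With the replicate block Ctsa was -0.088. Without YFP 5 and YFP 6 together Ctsh was -0.31, Ctsz -0.13 and Ctsa -0.27. Within numbers 1 and 2 Ctsb was -0.17, Ctsh -0.50, Ctsz -0.75 and Ctsa -0.61. For YFP over DP, scaling by total count gave 0.0030 for Ctsc. With only the 2 subsets fitted Ctsh was -0.033 and Cst3 -0.020, and with the replicate block Ctsh was -0.073. Without the 5 libraries Ctsc was 0.66. Without YFP 5 and YFP 6 Ctsh was -0.54 and Cst3 -0.68. Within numbers 1 and 2 Ctss was -0.40, Ctsb -0.52, Ctsh -0.75, Ctsz -1.12, Ctsd -0.33 and Ctsa -0.94, and within numbers 3 to 6 Ctsh was -0.083 and Cst3 -0.29.

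Leaving out 1 library at a time gave 0 to 1 members called for YFP over GFP and 0 for the others. The fits with 1 called, without YFP 1, YFP 3 or YFP 6, called 5, 8 and 11 genes in all. For YFP over GFP, Ctsa ran from -0.26 to 0.55, Ctsh from -0.13 to 1.03 and Ctsz from -0.15 to 0.77. For YFP over DP, Ctsa ran from -0.076 to 0.80, Ctsc from -0.78 to 0.65, Ctsh from -1.004 to 1.31 and Cst3 from -1.36 to 1.61. The lowest of each was without YFP 5. The median of the members ran from 0.15 to 1.29 for YFP over GFP and from 0.21 to 1.35 for YFP over DP. It ran from -0.35 to 1.16 for GFP over DN, from 0.26 to 1.92 for YFP over DN and from -0.98 to 0.73 for DP over DN, where the lowest value was without DN 1 and the highest without DN 6. The median for DP over GFP ran from -0.54 to 0.21, and the reference library of TMM may also have changed between these fits.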
